A study of Mus musculus with 16 samples.

Results

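The 78 mitochondrial ribosomal protein genes studied here were those of 24972 listed genes whose symbol begins with Mrpl or Mrps followed by a number, pseudogenes left out. These proteins are made in the cytosol from nuclear genes, imported into mitochondria, and assembled with 2 ribosomal RNAs of the mitochondrial genome into the mitoribosome. The mitoribosome translates only the few messages of that genome, all of which encode core subunits of the respiratory chain and ATP synthase. Oxidative phosphorylation is a main source of the ATP that hippocampal neurons spend on synaptic transmission. By structure 51 of the members belong to the large subunit, which forms the peptide bond, and 26 to the small subunit, which reads the message. The remaining symbol, Mrps36, names a protein now placed in the alpha-ketoglutarate dehydrogenase complex. The symbols themselves gave 49 Mrpl and 29 Mrps genes, because the products of Mrps18a and Mrps30 sit in the large subunit. A bacterial counterpart is known for 46 members, and 32 are specific to mitochondria.

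RNA was sequenced from dentate gyrus (DG), CA3 and CA1 of the dorsal hippocampus, dissected from 3 trained and 3 untrained adult mice after a memory retention test. All 6 mice carried ArcCreERT2::eYFPflx, in which the promoter of the activity gene Arc drives a tamoxifen-inducible Cre. Trained mice had learned active place avoidance, in which a rotating arena carries the mouse toward a shock zone, and untrained mice explored the same arena with the shock off. There were 16 libraries, with 3 per group except for untrained CA3 and untrained DG with 2 each, and tissue pieces of 1 animal were pooled by subregion. The deposited values are normalized estimated read counts (called values below) that sum to between 7607326 and 7984931 per library, so the sequencing depth behind them is unknown and no counting interval can be given.

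Several libraries went against their labels. Prox1, the defining transcription factor of DG granule cells, had values of 3052 to 3861 in CA1, 2690 to 4786 in CA3 and 3292 to 4183 in DG. The summed CA1 markers reached 2308 to 3699 in untrained CA1 but 1079 to 1393 in trained CA1, against 853 to 1371 in DG. The subregion labels were thus poorly separated by the markers of their principal cells. Xist, the X-inactivation RNA of female cells, was at 7601 to 19592 in the trained libraries and at 25.5 to 52.4 in the untrained ones, except for 10588 in the library labelled untrained CA3 replicate 1. That library disagreed with the CA1 and DG libraries of its own animal, and the library labelled trained DG replicate 3 held both Xist and the Y-linked Ddx3y, at 255. The methods assign both sexes to both training groups, so the Xist levels go against them, and training and sex-linked transcripts largely cannot be told apart in these libraries.

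Promoter sequences from RefSeq (GRCm38.p6) matched 69 of the 78 members. Mitoribosomal genes are known for promoters bound by NRF1, GABP (an ETS factor) and YY1, factors that couple nuclear genes to mitochondrial biogenesis. In windows from 250 bases before to 50 bases after the start, read on both strands, the NRF1 core GCATGCGC was present in 11.6% of members and 5.6% of the 11347 tested genes with a promoter. The ETS letters CCGGAAGT were present in 17.4% of members and 8.2% of tested genes, and the YY1 letters AAGATGGC in 17.4% and 4.8%. At least 1 of the 3 was found for 29 members, or 42.0%, beside 17.3% of the tested genes. The 100 bases before the start are shown for Mrpl32 and Mrps26, which were lower in CA1 than in DG, and for Mrpl27, which was higher in trained mice, with the matches on either strand in capitals. In Mrpl32 the matches are NRF1 cores, a pair of which overlap on opposite strands, and in Mrps26 and Mrpl27 they are ETS letters. Of the members called in the main tests below, only these 3 had a match in the 250 bases before the start. No match lay there for Mrpl11, Mrpl2, Mrpl53, Mrpl52, Mrps33, Mrps14 and Mrps10. A link between the matches and the differences in expression was not tested.
Mrpl32, chr13:14613038-14613137, minus strand: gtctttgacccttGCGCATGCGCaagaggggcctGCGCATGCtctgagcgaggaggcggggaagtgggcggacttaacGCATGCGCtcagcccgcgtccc
Mrps26, chr2:130563657-130563756, plus strand: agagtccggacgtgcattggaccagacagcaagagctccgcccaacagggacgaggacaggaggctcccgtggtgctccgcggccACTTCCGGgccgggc
Mrpl27, chr11:94653691-94653790, plus strand: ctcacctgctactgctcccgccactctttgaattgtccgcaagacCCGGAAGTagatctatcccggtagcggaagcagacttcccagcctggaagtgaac

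These are matches of letters and no binding was measured. The start used by GENCODE lies upstream of the RefSeq start in all 3 genes, so by that annotation the whole Mrpl32 sequence shown, all its NRF1 cores included, and the end of the other sequences lie within the gene. The ETS letters of Mrps26 begin at its GENCODE start. Members also lay close to other genes. In GENCODE vM21 a protein-coding gene on the opposite strand, running the other way, started within 1000 bases of the start of 33 members (42.3%), beside 14.7% of the 13766 tested protein-coding genes. Mrps11 and Mrpl46 form such a pair with each other, and other partners include Ndufs6 and Ndufb5 of respiratory complex I beside Mrpl36 and Mrpl47, and the mitochondrial DNA helicase gene Twnk beside Mrpl43. The members lay on 17 chromosomes and none on X. Their longest transcripts had a median length of 1866 bases, against 3500 bases for all tested genes, with a median GC content of 49.8% against 49.7%.

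All 78 members had a value above 0 in every library, the lowest being 22.9 and the highest 464, and all passed the filter for low values. Mean values over the 16 libraries ran from 36.3 for Mrps28 to 411 for Mrpl48, with a median of 116 beside 163 for all tested genes. On the scale of value per kilobase of the longest annotated transcript, the most abundant were Mrps21 (361 ± 53.9, SD, n = 16 libraries), Mrpl41 (276 ± 25.6), Mrps33 (249 ± 26.5), Mrpl20 (198 ± 24.6) and Mrpl10 (149 ± 14.5). Mrps21, Mrpl20 and Mrpl10 have bacterial counterparts, and the Mrpl10 protein anchors the stalk to which translation factors bind. The least abundant per kilobase were Mrps10 (15.5 ± 3.52), Mrps35 (15.7 ± 2.61), Mrpl47 (17.7 ± 3.09), Mrpl13 (18.8 ± 2.57) and Mrpl32 (25.3 ± 4.84). The SDs of Mrps10, Mrps35, Mrpl47 and Mrpl13 overlap, as do those of Mrpl32 with Mrpl13 and Mrpl47, and those of Mrpl41 and Mrps33. The normalization appears to differ between genes, so levels set side by side between genes are approximate. Most mitoribosomal proteins are present at 1 copy per ribosome, and their transcripts differed widely in level per kilobase. Longest transcripts measured 3013 to 6008 bases for the 5 lowest members and 488 to 1708 bases for the 5 highest. Levels and ranking on this scale thus depend on the annotated length. Of the 3 Mrps18 paralogs, Mrps18c is counted as the counterpart of bacterial S18, and the other 2 occupy places found only in the mitoribosome. They measured 126 ± 17.7 per kilobase for Mrps18c, 93.0 ± 12.8 for Mrps18b and 72.1 ± 9.68 for Mrps18a.

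**Figure D1:**
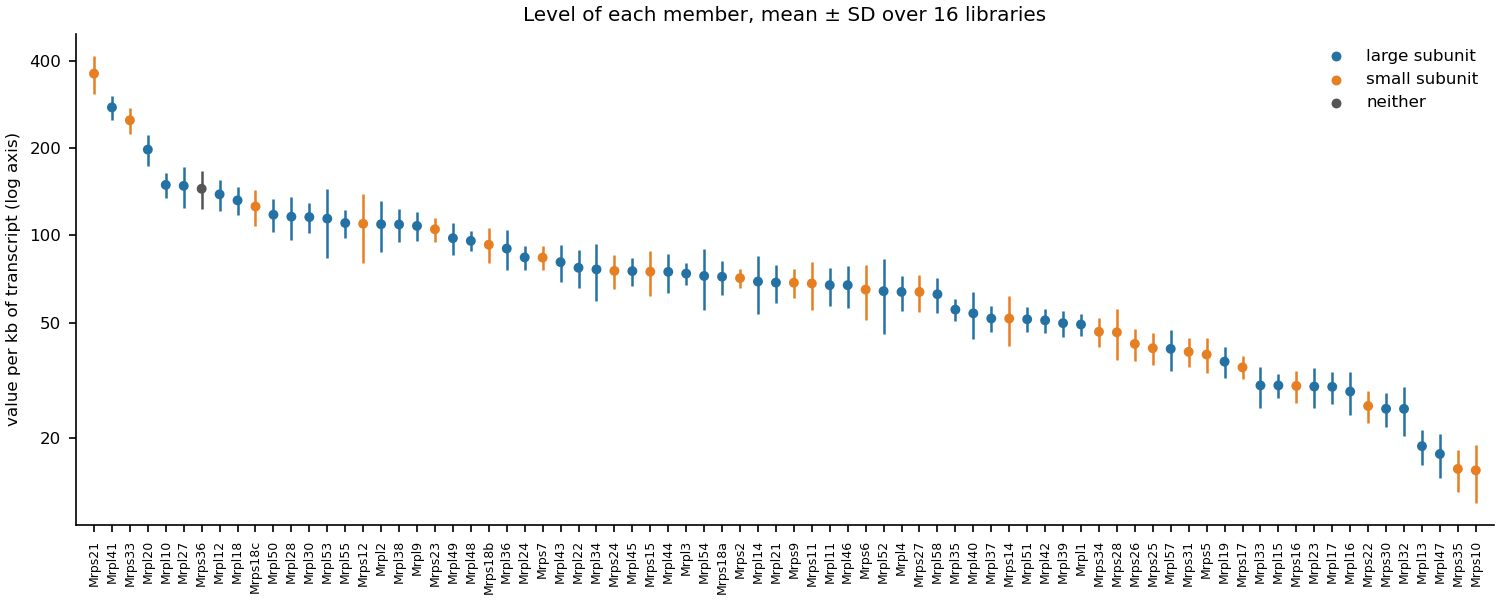
Value per kilobase of the longest annotated transcript (log axis) for each of the 78 members, as the mean with the SD over 16 libraries, coloured by ribosomal subunit. Levels run from 361 for Mrps21 to 15.5 for Mrps10, and both subunits are spread over the whole range.

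Within a member, values varied little across libraries. The coefficient of variation had a median of 13.6% and ran from 7.68% for Mrps2 to 29.0% for Mrpl52. Mrps12 and Mrpl53 followed Mrpl52 at the variable end, at 26.9% and 26.8%. Library profiles most like the mean of the other members, by Pearson correlation of log2 values over the 16 libraries, were those of Mrpl28 (0.83), Mrpl53 (0.76) and Mrpl12 (0.73). Mrps17 ran the other way, at -0.50. The libraries come from 6 animals and share their normalization, so these correlations only describe them.

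The clearest pattern lay between subregions. The members together made up 0.127 to 0.132% of the summed values in the 6 CA1 libraries, 0.133 to 0.142% in the 5 CA3 libraries and 0.133 to 0.147% in the 5 DG libraries. Every CA1 library was below every CA3 and DG library, while CA3 and DG overlapped. In CA1 between 18 and 36 of the 78 members exceeded their own mean over the 16 libraries. In DG that number was 55 to 66, except for 35 in untrained DG replicate 1. In bulk tissue fewer cells of a type and less RNA per cell cannot be told apart.

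**Figure D2:**
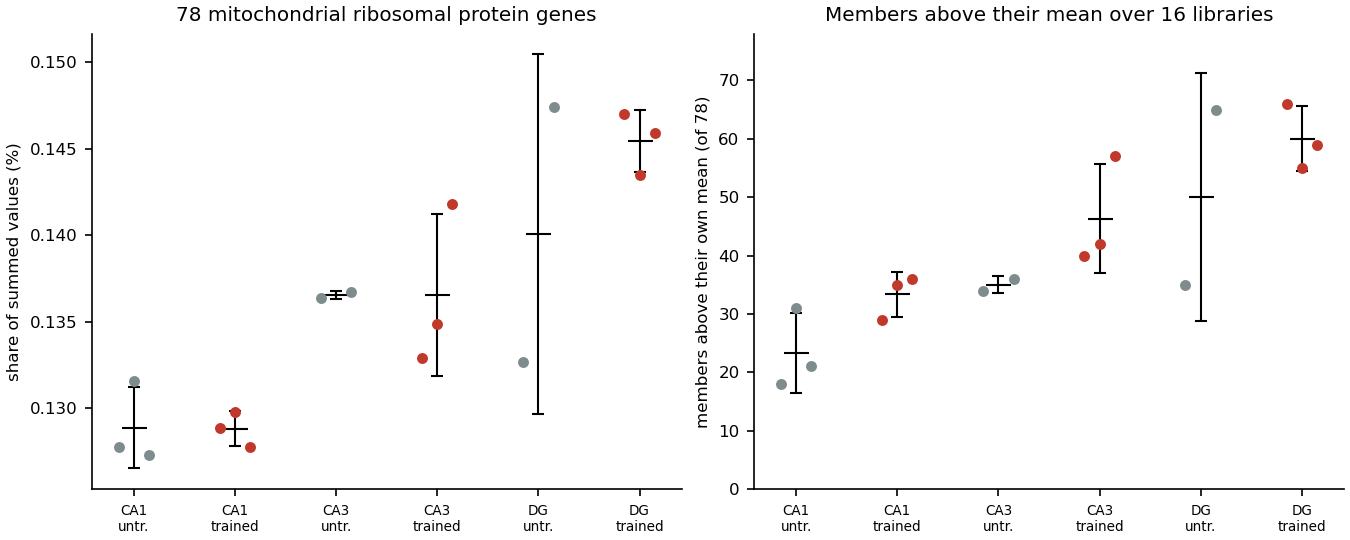
Left, the share of each library's summed values taken by the 78 members (%, axis not starting at 0); right, the number of members above their own mean over the 16 libraries. Points are libraries (grey untrained, red trained) and bars are mean and SD; the CA1 libraries lie lowest on the left, and 1 untrained DG library lies well below the other DG libraries.

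Between CA1 and DG, 3 of the 78 members passed the test across all genes, all lower in CA1. These were 3.8% of the members, beside 1.91% of the 14673 genes tested that were called lower in CA1. The direction was more widespread than the calls. The log2 fold change was below 0 for 68 of 78 members (87.2%), beside 50.7% of all tested genes, and the median was -0.15 beside -0.0027. Below 0 were 44 of 51 large-subunit and 23 of 26 small-subunit members, and 39 of 46 members with a bacterial counterpart and 29 of 32 specific to mitochondria.

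Mrps26 encodes a mitochondria-specific protein of the small subunit. Its values ranged from 140 over a median of 163 to 174 in the 6 CA1 libraries, and were 204 and 237 in untrained DG and 199, 203 and 188 in trained DG. The groups did not overlap, and the log2 fold change was -0.38 ± 0.08 (SE, adjusted p = 0.0106). CA3, at 168 to 194, overlapped both. An exon of the antisense gene 4930473A02Rik overlaps Mrps26 on the opposite strand.

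Mrpl11 encodes the uL11 protein at the base of the factor-binding stalk. Its values ranged from 150 over 197 to 208 in CA1, and were 222 and 260 in untrained DG and 230, 261 and 232 in trained DG. CA1 and DG again did not overlap, and the log2 fold change was -0.36 ± 0.08 (adjusted p = 0.0153). The CA3 libraries, at 174 to 214, all lay below DG as well, with a log2 fold change of -0.35 ± 0.09 that did not pass the test (adjusted p = 0.502).

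Mrpl32 encodes the bL32 protein, which a mitochondrial protease must process before the large subunit can be completed. Its values ranged from 52.1 over 63.5 to 68.8 in CA1, and from 77.6 over 87.3 to 101 in the 5 DG libraries, both extremes being untrained. The log2 fold change was -0.49 ± 0.12 (adjusted p = 0.0239), and the groups did not overlap. Against CA3, where values were 66.6 to 97.4, the log2 fold change was -0.43 ± 0.12 (adjusted p = 0.107).

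In all, 4 of 78 members did not overlap between CA1 and DG with CA1 lower, beside 1.33% of all tested genes. Members with the smallest p among those higher in CA1 were Mrps14 (0.15 ± 0.12, adjusted p = 0.543), Mrpl19 (0.12 ± 0.11, adjusted p = 0.574) and Mrpl1 (0.09 ± 0.09, adjusted p = 0.594). None of these exceeded the spread between libraries.

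All 3 calls depended on 1 library, and that of Mrpl32 on others too. Without untrained DG replicate 3, none of Mrps26, Mrpl11 and Mrpl32 passed, while the median over the members was -0.11. Mrps26 and Mrpl11 passed in 15 of the 16 fits that left out 1 library and Mrpl32 in 11, its call being lost also without untrained CA1 replicate 1, trained CA1 replicate 3 or trained DG replicate 2 or 3. Over all alternatives their adjusted p ran from 0.00671 to 0.174, from 0.0121 to 0.306 and from 0.015 to 0.116. Without untrained DG replicate 3 the log2 fold change of Mrps12, a small-subunit protein, was 0.57. The only untrained DG library then left had 28.5, while trained DG had 107 to 133 and CA1 had 65.5 to 114. The medians were -0.15 among trained libraries alone and -0.13 among untrained libraries alone, with 0 and 2 members called in limma, the 2 beside 2.13% of all genes called lower. After removal of a trend on GC content and length 6 members were called, all lower in CA1, beside 2.05% of all genes called lower.

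Other lists differed between CA1 and DG too, where 1.91% of all tested genes were called lower and 2.14% higher in CA1. Of the 82 tested cytosolic ribosomal proteins, which build the ribosomes of the cytosol, 14 were lower in CA1, Rpl35 (-0.36) and Rpl7a (-0.29) among them, and 1 was higher, Rpl30 (0.52), with a median of -0.08. Of 90 tested nuclear oxidative phosphorylation subunits, 7 were lower in CA1, led by Ndufb4 (-0.40) and Ndufv2 (-0.26), with a median of -0.09. Mitoribosome assembly and rRNA modification factors had 1 lower gene of 24, the helicase Ddx28 (-0.51), with a median of -0.03. Mitoribosome proteins with other symbols had 1 lower of 5 tested, Aurkaip1 (-0.32). None of 14 translation factors, 20 aminoacyl-tRNA synthetases and 9 genes of mitochondrial transcription and RNA stability passed, with medians of -0.05, 0.02 and -0.09. None of 9 regulators of mitochondrial biogenesis passed, and all 9 lay above 0, with a median of 0.085. Markers of other cell types moved as well. The summed values of 4 neuronal markers were 36060 to 42282 in CA1 and 42486 to 44936 in DG, and of the 4 Snap25 was lower in CA1, as was the CA3 marker Grik4. Of 3 endothelial markers Flt1 and Cldn5 were higher in CA1, with summed values of 476 to 560 against 253 to 504. The 4 choroid plexus markers summed to 68.3 to 2107 in CA1 and 58.0 to 198 in DG, Folr1 being at 0 in at least 1 library of each. Their part in the lower member values was not tested.

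**Figure D3:**
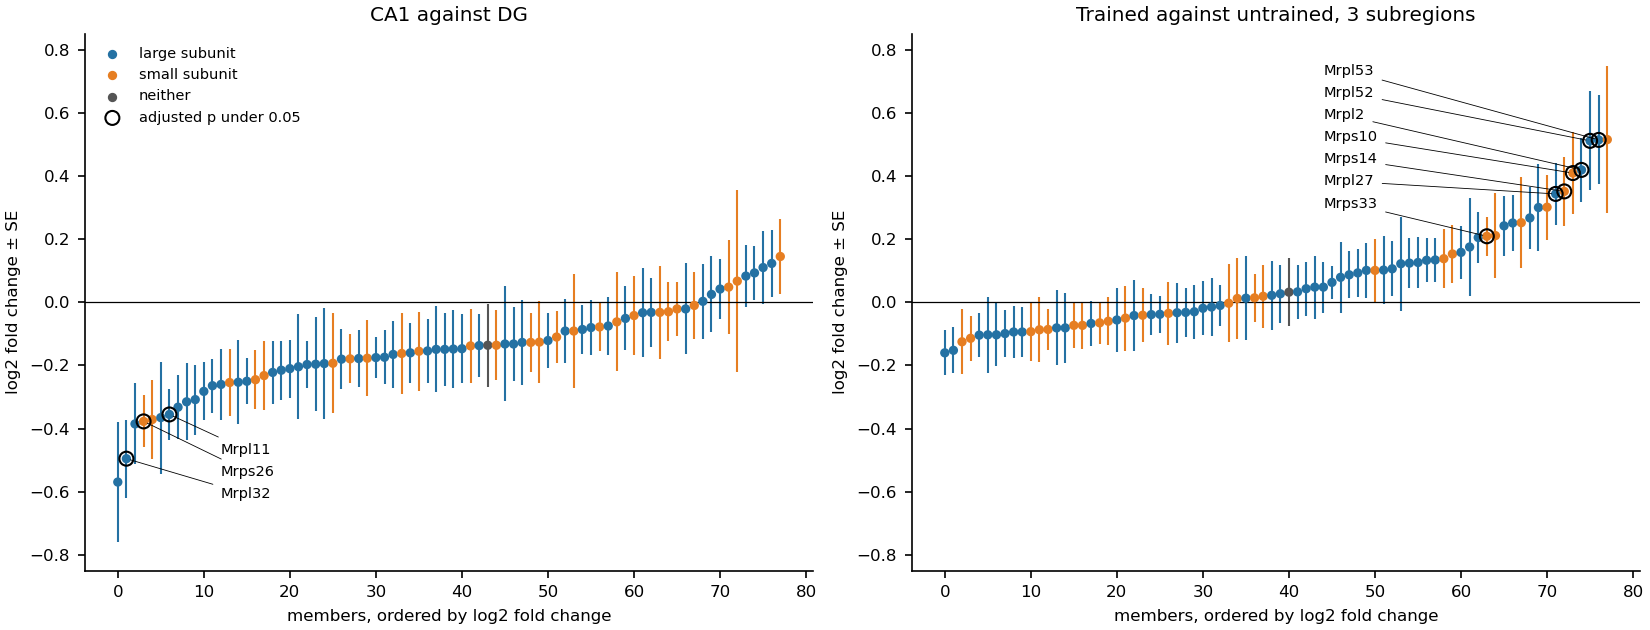
Log2 fold change with SE of each of the 78 members, ordered within each panel, for CA1 against DG (left) and trained against untrained over the 3 subregions (right), coloured by subunit; circles mark an adjusted p under 0.05. On the left 68 of 78 members lie below 0 and 3 are circled; on the right 44 of 78 lie above 0 and 7 are circled.

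Between CA1 and CA3 no member passed the test in limma, with 9 members at an unadjusted p under 0.05, and 0.988% of all genes were called. The log2 fold change was below 0 for 61 of 78 members, beside 52.0% of all tested genes, with a median of -0.07. It was below 0 for 32 of 46 members with a bacterial counterpart and 29 of 32 specific to mitochondria. After Mrpl32 the smallest p belonged to Mrpl41, a mitochondria-specific large-subunit protein (-0.22 ± 0.07, adjusted p = 0.211), and Mrpl17 (-0.25 ± 0.09, adjusted p = 0.248). On the higher side in CA1 were Mrps17, Mrps25 and Mrps28, with adjusted p of 0.812, 0.853 and 0.855. Between CA3 and DG no member passed either, with 7 at an unadjusted p under 0.05. After Mrpl11 the smallest p on the lower side in CA3 belonged to Mrps25 and Mrpl40 (adjusted p = 0.544 and 0.606), and on the higher side to Mrps14, Mrpl4 and Mrps27 (0.694, 0.781 and 0.845). Only 0.00682% of all genes were called there, and 51 of 78 members were below 0, beside 49.8% of all tested genes, with a median of -0.06. That median was -0.0061 without untrained DG replicate 3 and -0.12 without untrained DG replicate 1, with 37 and 13 of 78 members above 0.

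Training was compared next. With the 3 subregions fitted together, 7 of 78 members (9.0%) were higher in trained mice and none was lower, beside 6.28% of all tested genes called higher and 10.3% called in either direction. In this fit the libraries, from 3 animals per group, were treated as independent. The members as a whole hardly moved, with 44 of 78 above 0 and a median log2 fold change of 0.02 beside -0.0091 for all genes. The 7 were Mrpl2, Mrpl53, Mrpl27 and Mrpl52 of the large subunit and Mrps33, Mrps14 and Mrps10 of the small subunit. None of the members separated all 9 trained from all 7 untrained libraries, beside 0.62% of all genes that did so with higher values in trained mice.

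Mrpl2 encodes uL2, which lies next to the peptidyl transferase centre. Its values were 112 to 149 in the 9 trained libraries, with a median of 125, and 76.4 to 139 in the 7 untrained ones, with a median of 90.5. The log2 fold change was 0.42 ± 0.10 (adjusted p = 0.00975). In CA1 the values were 149, 126 and 112 in trained and 76.4, 90.5 and 90.9 in untrained mice. In CA3 they were 141, 125 and 122 against 86.3 and 95.6. In DG the 126, 122 and 116 of trained mice fell between the 85.2 and 139 of untrained mice. Trained and untrained values did not overlap in CA1 and CA3, as with higher trained values for 12.9% and 17.2% of all tested genes, and overlapped in DG. The training effects of CA1 and DG were not shown to differ for any member.

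Mrpl53 is a small mitochondria-specific protein of the large subunit, with 68.0 to 110 in trained and 37.9 to 104 in untrained libraries (medians 90.9 and 65.5). Its log2 fold change was 0.51 ± 0.14 (adjusted p = 0.0218). Mrpl27, whose bacterial counterpart reaches into the peptidyl transferase centre, had 112 to 143 against 71.5 to 118 (medians 118 and 102), and a log2 fold change of 0.34 ± 0.10 (adjusted p = 0.0253). Both overlap exons of other genes, Mrpl27 with Eme1 on the opposite strand and Mrpl53 with Gm42688 on its own strand and Ccdc142os on the other. Whether counting used strand is not given in the sources used here, so reads of these genes and their partners may not be told apart.

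Mrps33, a mitochondria-specific protein of the small subunit, had 272 to 317 in trained and 209 to 292 in untrained libraries, with a log2 fold change of 0.21 ± 0.06 (adjusted p = 0.032). Mrpl52 is likewise specific to mitochondria and had 46.7 to 79.0 against 22.9 to 59.4. Its log2 fold change was 0.51 ± 0.16 (adjusted p = 0.0382), and 2 of the untrained CA1 libraries, at 22.9 and 24.5, were the lowest of the 16. Mrps14 and Mrps10 have bacterial counterparts in the head of the small subunit. Mrps14 had 120 to 199 against 86.4 to 167 (0.35 ± 0.11, adjusted p = 0.0422), and Mrps10 had 51.9 to 90.7 against 40.6 to 71.5 (0.41 ± 0.13, adjusted p = 0.0452).

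Members with the smallest p among those lower in trained mice were Mrpl50 (-0.16 ± 0.07, adjusted p = 0.155), Mrpl17 (-0.15 ± 0.07, adjusted p = 0.188) and Mrps25 (-0.11 ± 0.07, adjusted p = 0.328), and none passed. The 7 calls depended on the fit. With a score of sex-linked transcripts as a covariate 0 members passed in limma, with 5 at an unadjusted p under 0.05, and 0 genes passed in all, with 1702 at an unadjusted p under 0.05. In that fit Mrps10 turned to -0.11 ± 0.30, Mrpl52 was at 0.02 ± 0.37 and Mrpl53 at 0.25 ± 0.34. Mrpl2 (0.43 ± 0.25), Mrpl27 (0.53 ± 0.23), Mrps14 (0.41 ± 0.27) and Mrps33 (0.29 ± 0.15) had log2 fold changes no smaller than before with larger SEs. Leaving out both libraries with mixed sex-linked transcripts left 4 calls, namely Mrpl2, Mrpl53, Mrpl52 and Mrps10, beside 4.6% of all genes called higher. Mrpl2 and Mrpl53 passed with each of the 16 libraries left out in turn, whereas Mrpl27 passed in 13, Mrps33 in 10, Mrpl52 in 5, Mrps10 in 4 and Mrps14 in 3 of those 16 fits. After removal of a trend on GC content and length, 4 members passed, namely Mrps14, Mrps10 and Mrpl57 with higher values and Mrps21 with lower values in trained mice, beside 7.82% of all genes called. The summed neuronal markers were 41403 to 46142 in trained and 36060 to 44936 in untrained libraries. Snap25 and the CA3 marker Grik4 were higher and the astrocyte gene Aqp4 was lower in trained mice. The 4 choroid plexus markers summed to 58.0 to 2107 (median 77.6) against 86.9 to 933 (median 671). The 2107 was that of trained CA1 replicate 1. The part of these markers in the 7 calls was not tested.

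**Figure D4:**
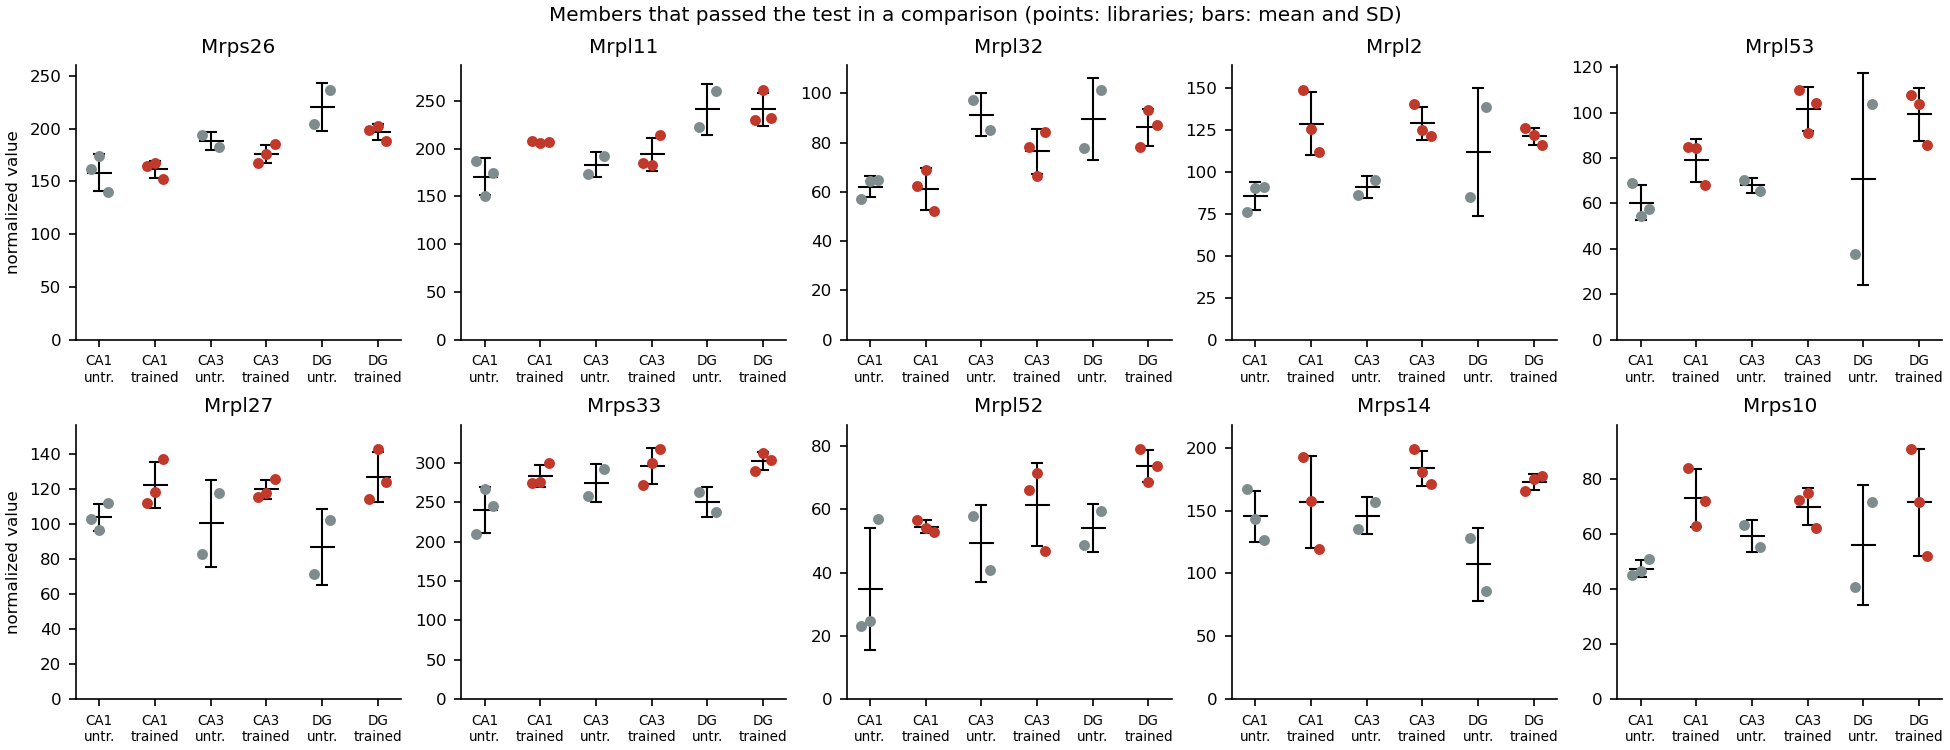
Normalized values of the 10 members that passed a test, by subregion and training; points are libraries (grey untrained, red trained), bars are mean and SD, and each axis starts at 0. The CA1 libraries lie below all DG libraries for Mrps26, Mrpl11 and Mrpl32, and for Mrpl2 the untrained libraries lie below the trained ones in CA1 and CA3 while 1 untrained DG library, at 139, lies above the trained DG libraries.

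Within single subregions few members passed. In CA1 only Mrpl2 was higher in trained mice (0.57 ± 0.16, adjusted p = 0.0401, n = 3 and 3 in limma), beside 3.53% of all genes called higher. Next came Mrps10, with 84.0, 63.1 and 71.9 in trained and 44.9, 46.5 and 50.8 in untrained mice (0.59 ± 0.20, adjusted p = 0.085). Its groups did not overlap, as was the case with higher trained values for 12.9% of all tested genes. Mrpl52 followed (0.74 ± 0.29, adjusted p = 0.165). On the lower side were Mrpl1 (-0.23 ± 0.12, adjusted p = 0.323), Mrps21 (-0.28 ± 0.15, adjusted p = 0.333) and Mrpl38 (-0.21 ± 0.14, adjusted p = 0.457). With the replicate number as a block, a number that the labels share without stating a pairing, Mrpl2 did not pass in CA1. The call was also lost without untrained CA1 replicate 1 or 2 and without trained CA1 replicate 1 or 2, while without untrained CA1 replicate 3 there were 3 calls, beside 6.51% of all genes called. After removal of the GC and length trend Mrpl2 did not pass, and Mrps21 was called lower in trained mice (-0.62 ± 0.13, adjusted p = 0.00503), beside 1.72% of all genes called lower. Of the markers, the neuronal Snap25, Rbfox3 and Syt1 and the CA3 gene Grik4 were higher in trained CA1, and the astrocyte gene Aqp4 and the CA1 gene Fibcd1 were lower. Their part in the Mrpl2 call was not tested. Xist was at 17310 to 19318 in trained and 26.1 to 52.4 in untrained CA1. Training and sex-linked transcripts therefore cannot be told apart in CA1.

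In CA3 no member passed in limma, with 7 at an unadjusted p under 0.05, and 0.852% of all genes were called. The smallest p belonged to Mrpl53, with 110, 90.9 and 104 in trained and 70.2 and 65.5 in untrained mice (0.57 ± 0.15, adjusted p = 0.109), and to Mrpl2 (0.50 ± 0.14, adjusted p = 0.118). Both were higher in every trained CA3 library than in either untrained one, as were 17.2% of all tested genes. Mrps18a followed (0.30 ± 0.11, adjusted p = 0.224). On the lower side were Mrpl47 (-0.38 ± 0.17, adjusted p = 0.311), Mrpl30 (-0.23 ± 0.11, adjusted p = 0.337) and Mrps25 (-0.22 ± 0.12, adjusted p = 0.371). With the replicate number as a block 1 member passed, Mrpl2 (0.54), beside 5.67% of all genes called higher in that fit. That number pairs no animals across training, and trained CA3 replicate 3 had no untrained library of its number. Of the markers, the choroid plexus genes Ttr and Clic6 were lower in trained CA3, and their part was not tested.

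In DG only Mrps14 was higher in trained mice, beside 1.74% of all genes called higher. Its values were 165, 175 and 178 in trained and 128 and 86.4 in untrained mice (0.70 ± 0.17, adjusted p = 0.0314). That log2 fold change was 0.43 without untrained DG replicate 3 and 0.98 without untrained DG replicate 1. Mrpl44 (0.48 ± 0.16, adjusted p = 0.104) and Mrpl27 (0.55 ± 0.19, adjusted p = 0.106) came next, and Mrpl40 (-0.41 ± 0.18, adjusted p = 0.231), Mrpl50 (-0.27 ± 0.12, adjusted p = 0.232) and Mrps25 (-0.26 ± 0.12, adjusted p = 0.245) were on the lower side. Of the markers, the granule cell gene Prox1 (3292 to 3366 in trained and 4118 to 4183 in untrained DG) and the endothelial gene Flt1 (172 to 192 and 306 to 390) were lower in trained DG, and their part was not tested. The 2 untrained DG libraries differed strongly from each other in several members, for example 37.9 and 104 for Mrpl53. Without untrained DG replicate 3, 8 members were called higher, beside 6.86% of all genes in that fit, and Mrps14 was not among them. Without any 1 of the 3 trained DG libraries the number of called members was 0. The median of 0.04 turned to -0.03 without untrained DG replicate 1 and to -0.05 after removal of the GC and length trend, so no direction can be given for the members as a group in DG.

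The training effect itself was compared between subregions by interaction terms. No member passed in limma for CA1 against DG (6 at an unadjusted p under 0.05, with 2.75% of all genes called), for CA1 against CA3 (1 member, with 0.0273% called) or for CA3 against DG (5 members, with 0.164% called). The smallest p among the members was that of Mrpl47 for CA3 against DG (-0.85 ± 0.30, adjusted p = 0.265). Between CA1 and DG the effect of Mrpl44 differed by -0.63 ± 0.23 (adjusted p = 0.143). Mrps14, called in DG alone among the single subregions, differed by -0.62 ± 0.23 between CA1 and DG (adjusted p = 0.159), and the effects of Mrps34 differed by 0.53 ± 0.21 (adjusted p = 0.185). Without untrained DG replicate 3, the effect of Mrps12 differed by -1.776 between CA1 and DG and by -1.655 between CA3 and DG. The only untrained DG library then left had 28.5, while the library left out had 122 and trained DG 107 to 133.

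Few other genes of mitochondrial gene expression passed the test of training over the 3 subregions. Of all tested genes, 6.28% were called higher and 4.06% lower there. Of 20 mitochondrial aminoacyl-tRNA synthetases, which charge the tRNAs that the mitoribosome uses, Aars2 (0.29 ± 0.07, adjusted p = 0.00821) and Vars2 (0.32 ± 0.09, adjusted p = 0.0216) rose, and the median was 0.06. None of 24 assembly and rRNA modification factors, 14 translation factors, 9 genes of mitochondrial transcription and RNA stability and 5 mitoribosome proteins with other symbols passed, with medians of -0.01, -0.007, 0.06 and -0.003. Among 9 regulators of mitochondrial biogenesis, the nuclear receptor gene Esrra rose (0.34 ± 0.07, adjusted p = 0.00425) and the coactivator gene Pprc1 fell (-0.20 ± 0.06, adjusted p = 0.0426), while Nrf1 (-0.13 ± 0.08), Gabpa (-0.20 ± 0.07) and Yy1 (-0.16 ± 0.05) did not pass. The nuclear oxidative phosphorylation subunits, which combine with the products of the mitoribosome, had 26 higher and 0 lower genes of 90 tested with a median of 0.13, led by Atp5e (0.55 ± 0.07) and Ndufc2 (0.40 ± 0.07). The cytosolic ribosomal proteins had 11 higher and 5 lower of 82, with a median of -0.02. The mitoribosomal members, at 7 higher of 78 with a median of 0.02, are given beside these counts without a test of the difference. The protein genes of the mitochondrial genome were not analysed here.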

How the data were processed

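Per the labels and the study's methods, the authors depleted ribosomal RNA (the labels name polyA RNA), sequenced paired ends, and used bcl2fastq 2.20, Trim Galore, FastQC, STAR, Salmon and DESeq2 with a build that the labels call GRCm38. The deposited signal per gene is a normalized estimated count, apparently scaled by factors that differ between genes as well as libraries. Whole reads could not be recovered, so count tests were not used. Values were tested as log2(value + 2) with limma 3.58.1 in R 4.3.3 (trend and robust variance), for genes with a value of at least 10 in as many libraries as the smaller group holds (at least 2 in fits across subregions). Training over all subregions was fitted with subregion as a term, and subregions and interactions in a fit of 6 groups. Both treated libraries of 1 animal as independent, except where the animal was named as a term. P-values are two-sided, Benjamini-Hochberg adjusted over all genes tested, and called under 0.05. They measure the spread between libraries of 3 animals per group at most. The fits were tested on simulated data. Each related list was counted whole, and members were named by smallest p (up to 3 per direction and comparison), by level per kilobase (5 highest and 5 lowest) and by profile, with the Mrps18 paralogs. Mrps12, Mrps11, Mrpl46, Mrps2, Mrpl48, Mrps28, Mrpl36, Mrpl43 and Mrpl57 were added after their values or positions were seen. Members and lists were chosen with earlier results of these data known. Libraries of 1 animal in different subregions were paired by the labels, with correlations of deviations from -0.108 to 0.092.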

Additional observations from a re-analysis of the deposited data

Results flagged for a closer look

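Dixon's test was applied to the summed share of the members and to the 10 members that passed a test, in the libraries of each subregion and of each training group (55 tests), and chance alone flags about 1 group in 20. The members' share in untrained DG replicate 1 was 0.1327%, while the nearest of the other 4 DG libraries had 0.1435%. Mrpl2 in untrained DG replicate 3 was 139.2, while the nearest of the other 6 untrained libraries had 95.6. Mrpl27 in untrained CA3 replicate 1, the library whose sex-linked transcripts differed from those of its animal, was 82.9, while the nearest of the other 4 CA3 libraries had 115.7.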

How the results depend on the processing

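Counts of members called were recomputed under the alternatives of each comparison. The sex-linked score, the number of genes at 0 and the animal as a random effect were run for training over all subregions alone. For training over all subregions, where 7 were called, it was 3 without a filter on low values, 4 after removal of a trend on GC content and length, 0 with the sex-linked score, 4 without both libraries with mixed sex-linked transcripts, 6 with the replicate number as a block, 8 with the animal as a random effect (Mrps11 being gained), 5 with the number of genes at 0 as a covariate (Mrpl52 and Mrps10 being lost), and 3 to 6 with 1 library left out. In CA1 (1 called) it was 0 with the replicate number as a block, and 0 to 3 with 1 library left out, and after removal of the GC and length trend it was 1 but a different gene, Mrps21, in the opposite direction. In CA3 (0 called) it was 1 with that block. In DG (1 called) it was 0 without both libraries with mixed sex-linked transcripts, and 0 to 8 with 1 library left out. For CA1 against DG (3 called) it was 6 after removal of the GC and length trend, 0 among trained libraries alone, 4 with the animal as a block, and 1 to 6 with 1 library left out, the 1 being in the opposite direction. For the difference in training effect between CA1 and DG it was 1 after removal of that trend, and 0 to 1 with 1 library left out, as it was between CA3 and DG. Median-of-ratios rescaling, a stricter filter (10 or more in each of the libraries) and a pseudocount of 0.5 moved no such count past 1.5 times. The animal, paired by the labels, changed no other count between subregions or of differences in training effect as a block. The replicate number pairs no animals across training, and its correlations of deviations ran from -0.18 to 0.119.

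The sign turned for Mrpl50 (0.029) and Mrps10 (-0.112) over all subregions with the sex-linked score. It turned for Mrps14 (-0.164) and Mrpl1 (-0.027) between CA1 and DG and for Mrpl4 (-0.073) between CA3 and DG among trained libraries alone, and for Mrps17 (-0.040) and Mrps25 (-0.088) between CA1 and CA3 among untrained libraries alone. Mrpl19 between CA1 and DG ran from -0.052 to 0.298 with 1 library left out. The cause of these changes was not tested. The alternatives that used trained or untrained libraries alone, or left out both libraries with mixed sex-linked transcripts, were chosen after seeing the data. Where 1 library of a group was left, it was assumed to vary like the others.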
